A study of Mus musculus with 16 samples.

Results

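Bile acids are made from cholesterol in hepatocytes, and 10 genes of this synthesis, of sterol hydroxylation and of their control were followed in mouse liver: Cyp7a1, Cyp8b1, Cyp27a1, Cyp39a1, Cyp46a1, Hsd3b7, Akr1d1, Baat, Nr1h4 and Nr0b2. They were taken by name from the 23420 genes of the count table for their known roles, and all 10 were measured. The groups were 4 male C57BL/6J wild-type mice given FEN-HFD for 20 weeks, 4 given HFD for 20 weeks, 4 given FEN-HFD for 7 days and 4 given HFD for 7 days. HFD is a high-fat diet with 45% fat and FEN-HFD is that diet with 0.04% fenretinide, a synthetic retinoid. All 16 mice had therefore eaten the high-fat diet, and no lean livers were analysed here. Their ages and the time of day of sampling are not given in the sources used here. The labels do not say whether the 20-week and 7-day mice were started together, so duration cannot be told apart from age or any difference in batch between them. Whole liver was sequenced, in which fewer cells of a type and less RNA per cell cannot be told apart.

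As background, the classical pathway begins with Cyp7a1, which encodes cholesterol 7α-hydroxylase and sets its rate. Other routes begin with a hydroxylation of the side chain, by the products of Cyp27a1 (the mitochondrial 27-hydroxylase) or Cyp46a1 (the 24-hydroxylase, best known from neurons), and the 7α-hydroxylase encoded by Cyp39a1 acts on 24-hydroxycholesterol. Hsd3b7 and Akr1d1 encode enzymes that modify the ring, Cyp8b1 encodes the 12α-hydroxylase that directs the product to cholic acid, and Baat encodes the enzyme that joins the finished acid to taurine or glycine. Nr1h4 encodes the bile acid receptor FXR, and its target Nr0b2 encodes SHP, a repressor of Cyp7a1 and Cyp8b1.

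Levels were normalised read counts, in CPM, which sets each count against the total of its library, scaled by TMM over all 16 libraries. Total counts ran from 19218230 to 24237124 in FEN-HFD 20-week, 23607063 to 30810144 in HFD 20-week, 23851276 to 32546829 in FEN-HFD 7-day and 25255797 to 32436573 in HFD 7-day libraries. The library of FEN-HFD mouse 29 (20 weeks) stood apart, with 53.1% of its counts in the ribosomal RNA gene Rn45s against 0.466% to 1.46% in the other 15. Cyp26a1, a retinoic acid inducible gene that checks the treatment labels, averaged 303 ± 12.8 CPM in FEN-HFD livers and 4.16 ± 0.579 CPM in HFD livers at 20 weeks, and 230 ± 28.4 CPM in FEN-HFD livers and 5.02 ± 3.48 CPM in HFD livers at 7 days (SD, n = 4 each). Hnf4a, a marker of hepatocytes, lay between 414 and 582 CPM in all 16 livers. The summed level of the 5 hepatocyte markers measured ran from 42060 to 58280 CPM in FEN-HFD and from 62110 to 69680 CPM in HFD livers at 20 weeks, and from 50140 to 58510 CPM in FEN-HFD and from 57530 to 73880 CPM in HFD livers at 7 days.

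Counted per kilobase of exon, Hsd3b7 (204 CPM per kb over all livers) and Cyp27a1 (200.5 CPM per kb) had the highest levels of the 10 genes. Baat (136 CPM per kb), Cyp8b1 (86.8), Akr1d1 (72.3), Nr1h4 (66), Nr0b2 (37.9) and Cyp7a1 (33.8) followed. The levels of Cyp39a1 and Cyp46a1 were far lower, at 4.02 and 0.553 CPM per kb. Cyp46a1 was counted from 10 to 186 times per library and Cyp39a1 from 30 to 722 times, whereas every other member had at least 341 counts in each library.

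**Figure D1:**
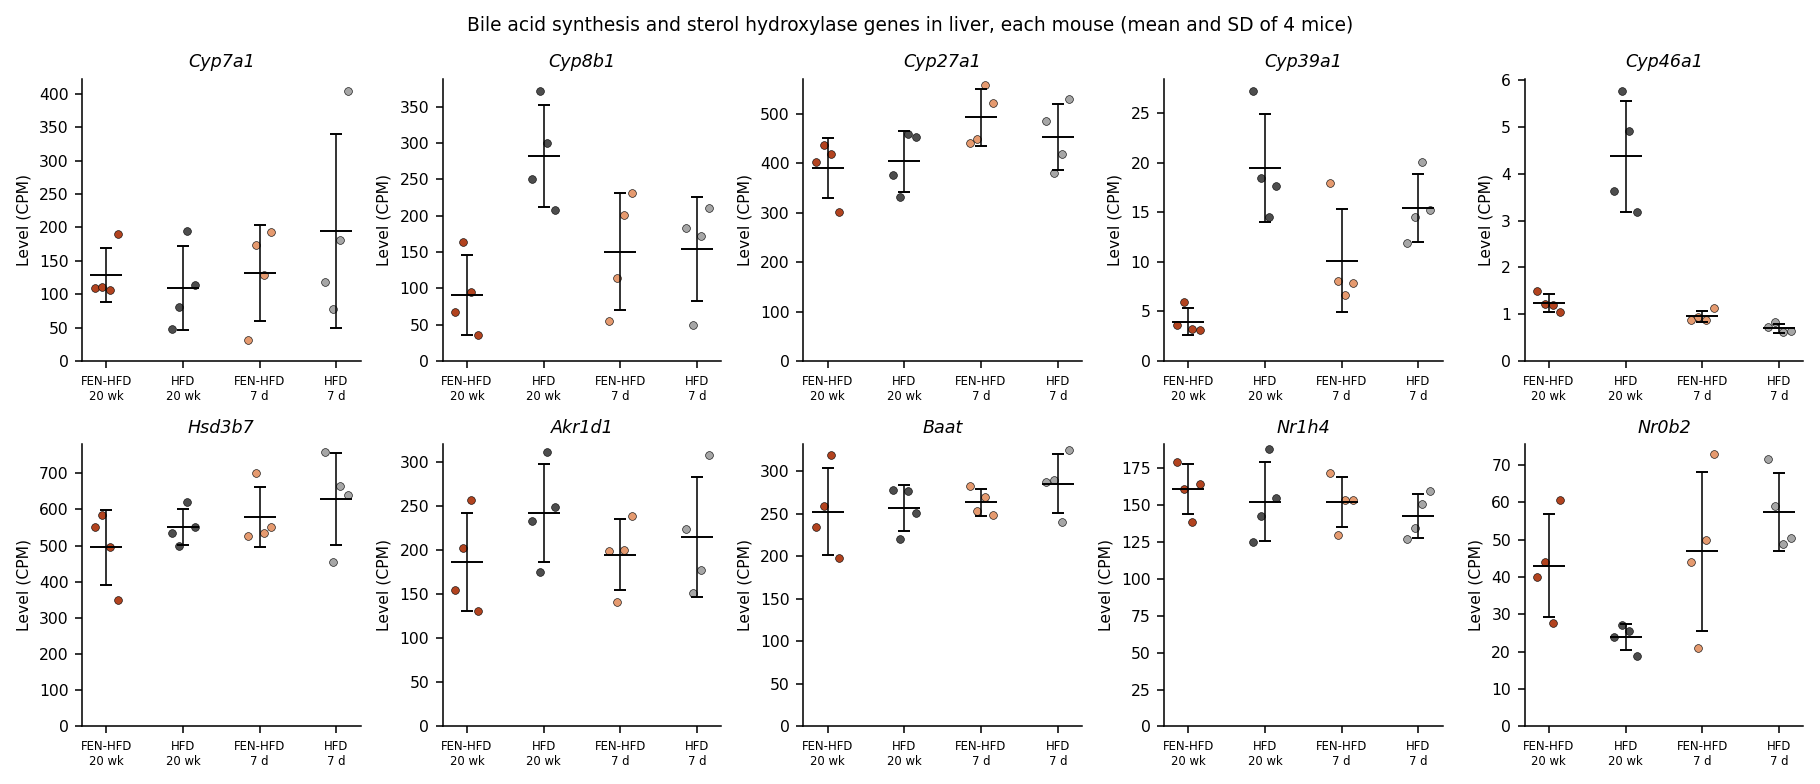
Level of each of the 10 genes in liver (CPM, vertical axis from 0) in FEN-HFD 20-week, HFD 20-week, FEN-HFD 7-day and HFD 7-day mice (horizontal axis). Points are mice and bars are the mean and SD of 4 mice; the FEN-HFD points lie below all HFD points at 20 weeks for Cyp8b1, Cyp39a1 and Cyp46a1, and above them for Nr0b2.

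The positions follow, on mm10. Cyp7a1 lies on chromosome 4 from 6265612 to 6275633, Baat on chromosome 4 from 49489422 to 49506557 and Nr0b2 on chromosome 4 from 133553376 to 133556536. Cyp27a1 lies on chromosome 1 from 74713574 to 74737892, Akr1d1 on chromosome 6 from 37530173 to 37568815 and Hsd3b7 on chromosome 7 from 127800604 to 127803802. Cyp8b1 lies on chromosome 9 from 121914356 to 121916305, Nr1h4 on chromosome 10 from 89454234 to 89533585, Cyp46a1 on chromosome 12 from 108334381 to 108362234 and Cyp39a1 on chromosome 17 from 43667425 to 43751431. Exons of Hsd3b7 overlap those of 2 other annotated genes, so part of its reads could belong to these.

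No promoter of Cyp39a1, whose level separated the 20-week groups, was in the set used. The 3 promoters below are printed because the levels of their genes also separated these groups and the promoters differ in make-up. They are the bases before the gene start in RefSeq (GRCm38.p6, the same assembly as mm10), read 5′ to 3′ along the gene's strand. Capitals mark matches to the motifs searched on both strands: CAAAGTCCA, a binding motif of HNF4, AGGTCA, the core hexamer of nuclear receptors, TATAAA, the TATA motif, and GGGCGG, the GC box. No motif overlapped another in these stretches.
Cyp8b1, chr9:121916306-121916555, minus strand: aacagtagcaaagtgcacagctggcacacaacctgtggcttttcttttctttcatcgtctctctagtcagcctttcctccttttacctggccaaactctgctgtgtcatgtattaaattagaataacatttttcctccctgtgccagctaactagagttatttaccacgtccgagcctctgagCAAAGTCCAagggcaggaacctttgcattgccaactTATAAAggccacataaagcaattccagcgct
Nr0b2, chr4:133553126-133553375, plus strand: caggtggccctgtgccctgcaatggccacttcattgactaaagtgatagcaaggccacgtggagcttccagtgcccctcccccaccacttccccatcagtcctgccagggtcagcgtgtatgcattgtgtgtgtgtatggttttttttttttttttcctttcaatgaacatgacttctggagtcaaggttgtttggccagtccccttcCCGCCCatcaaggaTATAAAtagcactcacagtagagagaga
Cyp46a1, chr12:108334066-108334267, plus strand: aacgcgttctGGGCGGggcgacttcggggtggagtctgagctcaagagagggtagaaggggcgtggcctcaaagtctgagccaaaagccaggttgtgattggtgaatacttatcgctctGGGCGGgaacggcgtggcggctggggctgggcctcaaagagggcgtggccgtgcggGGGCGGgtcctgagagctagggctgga

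The Cyp8b1 stretch (44.8% G and C) holds CAAAGTCCA beginning 67 bases and TATAAA beginning 31 bases before the gene start. The Nr0b2 stretch (50% G and C) holds TATAAA beginning 28 bases before the start and a GC box, on the other strand as CCGCCC, beginning 42 bases before it. The Cyp46a1 stretch is shorter (202 bases) and richer in G and C (64.4%), with GC boxes beginning 192, 83 and 27 bases before the start and no TATAAA. Distances for Cyp46a1 count from the first base of the gene in RefSeq (108334268), which lies before the GENCODE start given above, and bases inside the RefSeq gene were left out of the window. Among 32851 RefSeq promoter windows of 250 bases, 0.384% held CAAAGTCCA, 14% AGGTCA, 12.4% TATAAA and 32.7% GGGCGG. In their first 202 bases, which leave out the bases nearest the start, 25% held GGGCGG. The Cyp46a1 stretch reaches to its RefSeq start, so neither share is an exact match for it. The motifs were chosen with the results known, and a match describes letters only.

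The comparison of FEN-HFD with HFD livers at 20 weeks asks how gene expression differed when the diet held fenretinide for that time. The study's authors reported that fenretinide inhibits gain of body fat and of liver triglycerides. An effect of the drug on a gene therefore cannot be told apart here from one of less fat. Cyp39a1 and Cyp46a1, the hydroxylase genes of the 24-hydroxycholesterol route, were lower in FEN-HFD than in HFD livers, with log2 fold changes of -2.27 and -1.80. The level of Cyp8b1 was also lower and that of Nr0b2 higher in each FEN-HFD mouse than in any HFD mouse, but neither passed the adjusted threshold. The other 6 genes, with the rate-limiting Cyp7a1 among them, overlapped between the groups. By edgeR's quasi-likelihood test, with Benjamini-Hochberg adjustment over 13010 genes, 2 of 10 genes were lower and none higher at an adjusted p under 0.05, where 1.86% of all genes tested passed in either direction. At an unadjusted p under 0.05, 3 were lower and 1 higher, against 18.5% of all genes. DESeq2 and limma-voom each called those 4, against 7.07% of all genes by DESeq2 and 8.67% by limma-voom. The groups did not overlap for 4 of the 10 genes, against 12.8% of all genes. The median log2 fold change of the 10 genes was -0.10, and that of all genes 0.0093.

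Cyp39a1 stood at 3.59, 5.99, 3.22 and 3.12 CPM in FEN-HFD mice 21, 22, 24 and 29, and at 27.2, 18.5, 14.5 and 17.7 CPM in HFD mice 25, 28, 33 and 45. Even the highest FEN-HFD liver, of mouse 22, was far under the lowest HFD liver. The mean was 3.98 ± 1.35 CPM in FEN-HFD and 19.5 ± 5.45 CPM in HFD livers (SD, n = 4 each), a 4.81-fold lower level (log2 fold change -2.27, SE 0.258, adjusted p = 0.00586 from edgeR). The gene passed in each of 15 alternative analyses, with adjusted p from 6.56e-14 to 0.0344. At 20 weeks the Kupffer cell marker sum ran from 364 to 842 CPM in FEN-HFD and from 285 to 346 CPM in HFD livers. The groups did not overlap, and the highest sum was that of mouse 29. Of the 5 Kupffer cell markers tested, edgeR called 1 higher, and 4 were higher at an unadjusted p under 0.05. Their median log2 fold change was 0.644, and DESeq2 and limma-voom each called 2 higher. The lower hepatocyte marker sum was mostly Alb, which averaged 34670 ± 6660 CPM in FEN-HFD and 51060 ± 3546 CPM in HFD livers (SD, n = 4 each). Of the 5 hepatocyte markers edgeR called none, and their log2 fold changes were -0.56 for Alb, -0.47 for Ttr, -0.01 for Hnf4a, 0.10 for Cps1 and 0.39 for Apoa1, with a median of -0.012. Without adjustment 3 of these 5 had p under 0.05 (Apoa1 higher, Alb and Ttr lower), 3 were called by DESeq2 and 2, both lower, by limma-voom. Of other markers edgeR called higher the pericentral Lgr5 (1.08), 1 of 7 tested, and the stellate cell gene Lrat (0.75), 1 of 6. It called lower the periportal Hsd17b13 (-1.26), 1 of 5. Median log2 fold changes were 0.165 for the pericentral, -0.403 for the stellate cell and -0.0169 for the periportal list. Of the stellate cell markers, 3 were lower at an unadjusted p under 0.05, and limma-voom called 2 lower, so Lrat did not stand for its list. The part of these markers in the results at 20 weeks was not tested. Without mouse 29 the same number of members, 2, was called.

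Cyp46a1 stood at 1.5, 1.21, 1.21 and 1.04 CPM in FEN-HFD mice 21, 22, 24 and 29, and at 3.62, 5.77, 4.91 and 3.19 CPM in HFD mice 25, 28, 33 and 45. The FEN-HFD livers lay close together and the HFD livers were spread above them. The mean was 1.24 ± 0.19 CPM in FEN-HFD and 4.37 ± 1.18 CPM in HFD livers (SD, n = 4 each), 3.48-fold lower in the fit (log2 fold change -1.80, SE 0.240, adjusted p = 0.00914 from edgeR). All 15 alternatives called it lower, with adjusted p from 1.3e-07 to 0.0368. These levels rest on 10 to 40 counts in FEN-HFD and 79 to 186 counts in HFD libraries.

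Cyp8b1, whose product decides how much cholic acid is made, stood at 67.3, 164, 95.5 and 35.5 CPM in FEN-HFD mice 21, 22, 24 and 29. It stood at 251, 371, 299.7 and 208 CPM in HFD mice 25, 28, 33 and 45. The groups did not overlap, and mouse 22 came nearest to the HFD livers. The mean was 90.6 ± 54.9 CPM in FEN-HFD and 282 ± 70.1 CPM in HFD livers (SD, n = 4 each), with a log2 fold change of -1.64 (SE 0.415, adjusted p = 0.0845 from edgeR). It passed by DESeq2 (adjusted p = 0.0129) and limma-voom (adjusted p = 0.0431) and, by edgeR, without mouse 22 (log2 fold change -2.09, adjusted p = 0.0415), over a range of adjusted p from 0.0129 to 0.219. With 1 mouse left out the log2 fold change ran from -2.09 to -1.37. Cyp8b1 was not called without mouse 29, whose level was the lowest.

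Nr0b2, the repressor gene, stood at 40.1, 44, 27.6 and 60.8 CPM in FEN-HFD mice 21, 22, 24 and 29, and at 24.1, 27.1, 25.5 and 19 CPM in HFD mice 25, 28, 33 and 45. The lowest FEN-HFD liver, of mouse 24, was only just above the highest HFD liver. The mean was 43.1 ± 13.7 CPM in FEN-HFD and 23.9 ± 3.52 CPM in HFD livers (SD, n = 4 each), with a log2 fold change of 0.84 (SE 0.217, adjusted p = 0.0842 from edgeR). It passed by DESeq2 (adjusted p = 0.00581), by limma-voom (adjusted p = 0.0177) and, by edgeR, without mouse 24 (log2 fold change 1.00, adjusted p = 0.0454), over a range of adjusted p from 0.00581 to 0.207. With 1 mouse left out the log2 fold change ran from 0.64 to 1.00. Nr0b2 was not called without mouse 29, whose level was the highest. Nr1h4, which encodes the receptor that induces it, averaged 161 ± 16.9 CPM in FEN-HFD and 152 ± 26.8 CPM in HFD livers (SD, n = 4 each; log2 fold change 0.08, SE 0.136).

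Cyp7a1 stood at 109, 111, 106 and 190 CPM in FEN-HFD mice 21, 22, 24 and 29, and at 47.9, 81.1, 194 and 113 CPM in HFD mice 25, 28, 33 and 45. The livers of mice 21, 22 and 24 were almost alike and mouse 29 was apart from them, while the HFD livers were spread on both sides. The log2 fold change was 0.24 (SE 0.396, adjusted p = 0.789 from edgeR), an error within which a sizeable change in either direction could go undetected. Cyp27a1 averaged 391 ± 60.5 CPM in FEN-HFD and 405 ± 61.7 CPM in HFD livers, Hsd3b7 496 ± 104 CPM in FEN-HFD and 552 ± 51 CPM in HFD livers, and Baat 253 ± 50.9 CPM in FEN-HFD and 256 ± 27.1 CPM in HFD livers (SD, n = 4 each). Akr1d1 averaged 186 ± 55.8 CPM in FEN-HFD and 242 ± 55.9 CPM in HFD livers (SD, n = 4 each). Their log2 fold changes were -0.05 for Cyp27a1 (SE 0.151), -0.16 for Hsd3b7 (SE 0.160), -0.02 for Baat (SE 0.150) and -0.38 for Akr1d1 (SE 0.229), each smaller than 2 SE.

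**Figure D2:**
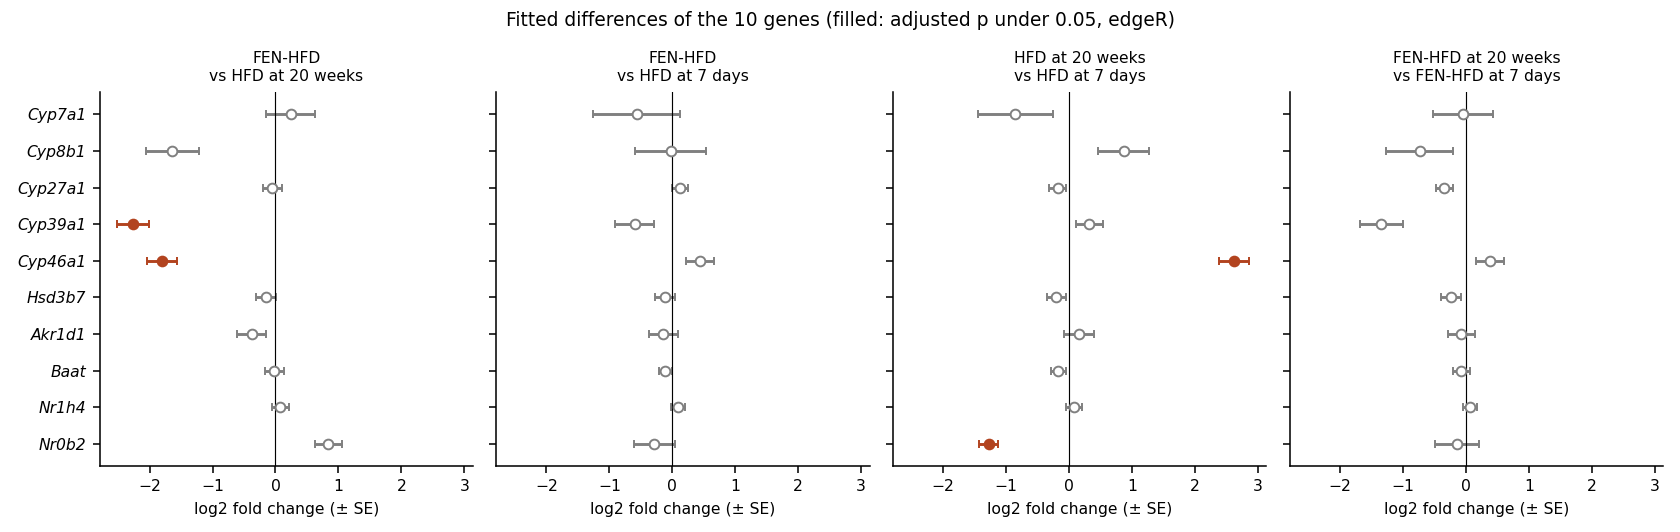
Log2 fold change of each of the 10 genes with its SE (horizontal axis) in FEN-HFD against HFD livers at 20 weeks, the same at 7 days, 20-week against 7-day HFD livers and 20-week against 7-day FEN-HFD livers. Filled points passed an adjusted p under 0.05 in edgeR: Cyp39a1 (-2.27) and Cyp46a1 (-1.80) in the first comparison, and Cyp46a1 (2.62) and Nr0b2 (-1.28) in the third.

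The comparison at 7 days asks what fenretinide does early, after the same diet for a short time. No member was called by edgeR in either direction, none passed at an unadjusted p under 0.05, and DESeq2 and limma-voom called none. Of all genes, 5.08% had an unadjusted p under 0.05, and DESeq2 called 0.602% and limma-voom 0.22%. Of all 13157 genes tested, 0.0988% passed. The groups did not overlap for 1 of the 10 genes, Cyp46a1, against 3.19% of all genes. The median log2 fold change of the 10 genes was -0.11, and that of all genes -0.011. Of the 5 hepatocyte markers, 3 were lower at 7 days at an unadjusted p under 0.05, with a median log2 fold change of -0.376. None of these markers was called by edgeR, DESeq2 or limma-voom. Among the other marker lists edgeR called only 1 of 6 stellate cell markers, higher. The part of these markers in the results at 7 days was not tested.

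Cyp46a1 at 7 days stood at 0.886, 0.936, 0.868 and 1.13 CPM in FEN-HFD mice 61, 62, 65 and 66, and at 0.721, 0.827, 0.613 and 0.637 CPM in HFD mice 142, 143, 144 and 146. The order of the groups was the reverse of that at 20 weeks, with all FEN-HFD livers above all HFD livers (log2 fold change 0.44, SE 0.223, adjusted p = 1 from edgeR). Each of these values rests on 16 to 31 counts.

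Cyp39a1 at 7 days stood at 17.9, 8.09, 6.69 and 7.85 CPM in FEN-HFD mice 61, 62, 65 and 66, and at 11.9, 14.5, 20.1 and 15.2 CPM in HFD mice 142, 143, 144 and 146. Only FEN-HFD mouse 61 lay among the HFD livers. The log2 fold change was -0.60 (SE 0.311, adjusted p = 1 from edgeR), and -1.03 without mouse 61 (adjusted p = 0.127).

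Cyp8b1 and Cyp7a1 varied widely among the 7-day mice of both diets. Cyp8b1 stood at 55.2, 115, 200.3 and 231 CPM in FEN-HFD mice 61, 62, 65 and 66, and at 183, 49.2, 172 and 210.4 CPM in HFD mice 142, 143, 144 and 146 (log2 fold change -0.03, SE 0.570). Cyp7a1 stood at 31.8, 173, 128 and 193 CPM in FEN-HFD mice 61, 62, 65 and 66, and at 118, 78.2, 181 and 404 CPM in HFD mice 142, 143, 144 and 146 (log2 fold change -0.56, SE 0.692). The highest Cyp7a1 level of all 16 livers was that of HFD mouse 146 and the lowest that of FEN-HFD mouse 61. As background, both genes follow the time of day and feeding. Nr1d1, a core clock gene, was at 22.9, 21, 8.46 and 10 CPM in FEN-HFD mice 61, 62, 65 and 66, and at 28.2, 25.2, 26.8 and 8.88 CPM in HFD mice 142, 143, 144 and 146, so that mice 65, 66 and 146 were low. Of 14 clock genes tested, edgeR called none in any of the 5 comparisons. At an unadjusted p under 0.05 edgeR found 1 at 20 weeks, 0 at 7 days and 2 over time with HFD, against 18.5%, 5.08% and 25.5% of all genes. It found 3 over time with FEN-HFD and 0 for the difference, against 9.66% and 8.68%. DESeq2 called 1 at 20 weeks (7.07% of all genes) and 1 over time with HFD (12.3%). Limma-voom called 1 over time with FEN-HFD (6.89%). The part of sampling time in the spread of Cyp7a1 and Cyp8b1 was not tested.

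The other members were not called at 7 days, and their groups overlapped. Nr0b2 averaged 47 ± 21.3 CPM in FEN-HFD and 57.5 ± 10.4 CPM in HFD livers (SD, n = 4 each), with FEN-HFD livers from 21 CPM in mouse 62 to 72.9 CPM in mouse 66 (log2 fold change -0.29, SE 0.325). Log2 fold changes of Cyp27a1, Hsd3b7, Akr1d1, Baat and Nr1h4 lay between -0.14 for Akr1d1 (SE 0.225) and 0.12 for Cyp27a1 (SE 0.129).

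Whether fenretinide acted differently at the 2 times was tested in a fit of all 16 libraries. Cyp46a1 passed, with an effect of fenretinide that was lower at 20 weeks than at 7 days (log2 difference -2.24, SE 0.311, adjusted p = 0.0119 from edgeR). Of the 10 genes it alone passed, where 0.0299% of 13387 genes (4 genes) did. At an unadjusted p under 0.05 there were 3 lower and 1 higher, against 8.68% of all genes, and DESeq2 called 2 (0.833% of all genes) and limma-voom 1 (0.672%). The call was lost without FEN-HFD mouse 22 of the 20-week group (adjusted p = 0.0534) or FEN-HFD mouse 65 of the 7-day group (adjusted p = 0.0543), over a range from 2.13e-05 to 0.0543. Cyp39a1 had a difference of -1.66 (SE 0.438, adjusted p = 0.230 from edgeR) and passed by DESeq2 (adjusted p = 0.0209). Differences of -1.60 for Cyp8b1 (SE 0.737, adjusted p = 0.571) and 1.13 for Nr0b2 (SE 0.421, adjusted p = 0.458) did not pass, so that a difference between the times was not shown for these genes.

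The comparison of HFD livers at 20 weeks with HFD livers at 7 days shows how the 10 genes stood after long and short exposure to the diet alone. Cyp46a1 rose and Nr0b2 fell. These were 2 of the 10 genes, where 7.51% of all 13255 genes tested passed, and the groups did not overlap for the same 2, against 17% of all genes. The same number, 2, had an unadjusted p under 0.05, against 25.5% of all genes, and DESeq2 (12.3% of all genes) and limma-voom (9.57%) each called 2. The median log2 fold change of the 10 genes was -0.04, and that of all genes -0.013.

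For Cyp46a1, the mean of 4.37 ± 1.18 CPM in 20-week HFD livers stood against 0.7 ± 0.097 CPM in 7-day HFD livers (SD, n = 4 each), 6.16-fold higher in the fit (log2 fold change 2.62, SE 0.242, adjusted p = 0.00067 from edgeR). Every alternative called it, with adjusted p from 8.79e-17 to 0.0044. In FEN-HFD livers the same comparison gave 1.24 ± 0.19 CPM at 20 weeks and 0.956 ± 0.122 CPM at 7 days (log2 fold change 0.39, SE 0.222, adjusted p = 0.683 from edgeR). The 20-week HFD livers were thus the high ones among the 4 groups, and the order was 20-week HFD, 20-week FEN-HFD, 7-day FEN-HFD, 7-day HFD, with the 20-week FEN-HFD and 7-day FEN-HFD livers overlapping.

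Nr0b2 stood at 24.1, 27.1, 25.5 and 19 CPM in 20-week HFD mice 25, 28, 33 and 45, and at 71.6, 59, 48.9 and 50.4 CPM in 7-day HFD mice 142, 143, 144 and 146. All 20-week livers lay well under all 7-day livers, at a 2.42-fold lower level (log2 fold change -1.28, SE 0.148, adjusted p = 0.00181 from edgeR). Adjusted p ran from 2.1e-12 to 0.015 over the alternatives, all of which called it. In FEN-HFD livers Nr0b2 averaged 43.1 ± 13.7 CPM at 20 weeks and 47 ± 21.3 CPM at 7 days (SD, n = 4 each; log2 fold change -0.14, SE 0.354). The 20-week HFD livers were therefore the low ones, without overlap with the 20-week FEN-HFD or 7-day HFD livers but overlapping 1 FEN-HFD liver of 7 days (mouse 62), while the other 3 groups overlapped one another in the order 7-day HFD, 7-day FEN-HFD, 20-week FEN-HFD. The summed level of the 5 Kupffer cell markers ran from 285 to 346 CPM in 20-week and from 362 to 813 CPM in 7-day HFD livers, and 2 of them were called lower. Also called lower were 2 of 5 hepatocyte markers (Cps1, log2 fold change -1.25, and Apoa1, -0.83), 2 of 5 periportal markers (Cyp2f2, -0.61, and Hal, -0.94) and 1 of 3 T and NK cell markers (Klrb1c, -1.60), and 1 of 6 stellate cell markers (Col1a1, 1.30) was called higher. The share of all genes called was 7.51%. Median log2 fold changes were -0.705 for the Kupffer cell, -0.0929 for the hepatocyte and -0.519 for the periportal list. They were -1.16 for the T and NK cell and 0.509 for the stellate cell list. At an unadjusted p under 0.05, lower were 4 Kupffer cell, 2 hepatocyte, 2 periportal and 2 T and NK cell markers. Higher were 1 periportal and 3 stellate cell markers, against 25.5% of all genes. The part of these markers in this comparison was not tested.

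Cyp8b1 averaged 282 ± 70.1 CPM in 20-week and 154 ± 71.5 CPM in 7-day HFD livers (SD, n = 4 each; log2 fold change 0.87, SE 0.407, adjusted p = 0.225 from edgeR), and the groups overlapped. Cyp7a1 averaged 109 ± 62.6 CPM in 20-week and 195 ± 146 CPM in 7-day HFD livers (SD, n = 4 each; log2 fold change -0.85, SE 0.594), and -0.22 without HFD mouse 146.

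Between FEN-HFD livers at 20 weeks and at 7 days, edgeR called none of the 10 genes, where 1.18% of 12949 genes passed. At an unadjusted p under 0.05 there were 2 lower, Cyp39a1 and Cyp27a1, against 9.66% of all genes, and these were also the 2 whose groups did not overlap, against 6.55% of all genes. Cyp39a1 averaged 3.98 ± 1.35 CPM at 20 weeks and 10.1 ± 5.24 CPM at 7 days (SD, n = 4 each; log2 fold change -1.34, SE 0.342, adjusted p = 0.122 from edgeR), and DESeq2 called it (adjusted p = 0.00361). Cyp27a1 averaged 391 ± 60.5 CPM at 20 weeks and 493 ± 56.9 CPM at 7 days (SD, n = 4 each; log2 fold change -0.35, SE 0.135, adjusted p = 0.417 from edgeR). Limma-voom called none, while DESeq2 called 2.82% and limma-voom 6.89% of all genes.

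Since Nr0b2 encodes a repressor of Cyp7a1 and Cyp8b1, their levels were compared within groups, as deviations from the group means over 16 livers. Nr0b2 and Cyp7a1 gave r = -0.0222 (permutation p = 0.946) and rho = 0.0353 (permutation p = 0.910), and r = 0.0474 without mice 62 and 66, farthest from the median. Nr0b2 and Cyp8b1 gave r = 0.0677 (permutation p = 0.853) and rho = 0.282 (permutation p = 0.363), and r = -0.153 without mice 62 and 66. Cyp7a1 and Cyp8b1 gave r = 0.465 (permutation p = 0.133) and rho = 0.382 (permutation p = 0.199), and r = 0.0474 without mice 61 and 146. Over these 3 pairs the adjusted p was 0.946, 0.946 and 0.399 for r, and 0.910, 0.544 and 0.544 for rho. No relation among the 3 was detectable with 4 mice in each group.

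**Figure D3:**
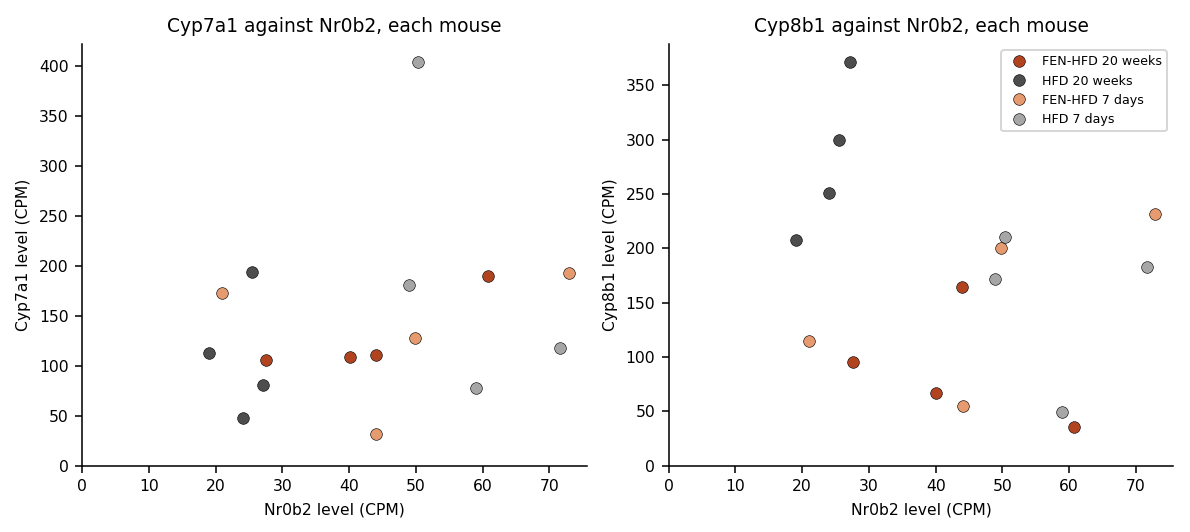
Level of Cyp7a1 (left) and Cyp8b1 (right) on the vertical axis against that of Nr0b2 on the horizontal axis, all in CPM, with 1 point for each of 16 livers coloured by group. The 20-week HFD livers lie at low Nr0b2 (19 to 27.1 CPM) with Cyp8b1 at 208 to 371 CPM, and FEN-HFD mouse 62 of 7 days (21 CPM) lies among them on the Nr0b2 axis.

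The genes whose log2 CPM followed the called members most closely over the 16 livers were searched among 13387 genes. For Cyp39a1 these were Gldc, which encodes glycine decarboxylase (r = 0.918), Elovl2, an elongase gene of polyunsaturated fatty acids (r = 0.901), and Rnf130 (r = 0.887). For Cyp46a1 they were Tenm3 (r = 0.957), Abcc3, an export pump of bile acid conjugates (r = 0.947), and Atp9a (r = 0.941). All points share the 4 groups, so these values describe group differences as well as differences between mice.

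Other enzymes of bile acid synthesis were followed in a list of 15 genes, of which 14 were tested. With fenretinide at 20 weeks 1 rose and none fell, against 4 higher and 2 lower at an unadjusted p under 0.05, with a median log2 fold change of 0.09. Shares over all genes in this comparison are those given above and serve for the lists that follow. They were 1.86% adjusted and 18.5% unadjusted by edgeR, 7.07% by DESeq2 and 8.67% by limma-voom. By DESeq2, 1 of the list was higher and 1 lower, and by limma-voom 3 were higher and 1 lower. The gene that rose was Cyp2c70, whose product makes the muricholic acids that set mouse bile apart from human bile. Cyp2c70 belongs to a family of similar genes, among which reads can be split uncertainly.

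Cyp2c70 stood at 723, 765, 869 and 559 CPM in FEN-HFD mice 21, 22, 24 and 29, and at 177, 113, 202 and 260.1 CPM in HFD mice 25, 28, 33 and 45. The groups were widely separated (log2 fold change 1.95, SE 0.242, adjusted p = 0.00701 from edgeR), and all 15 alternatives called it. At 7 days it averaged 1366 ± 74.5 CPM in FEN-HFD and 732 ± 108 CPM in HFD livers (SD, n = 4 each; log2 fold change 0.90, SE 0.122, adjusted p = 0.0191 from edgeR), again without overlap. It was the 1 gene of this list that rose at 7 days, against 0.0988% of all genes, and none fell by any tool. At an unadjusted p under 0.05, 4 of the list were higher, against 5.08% of all genes, and DESeq2 called 3 higher, against 0.602%. The edgeR call of Cyp2c70 at 7 days was lost without FEN-HFD mouse 61, 62, 65 or 66 or HFD mouse 144 or 146, with adjusted p up to 0.0987. It was also lost in the fit of all 16 libraries (adjusted p = 0.151). Over time, Cyp2c70 was lower at 20 weeks than at 7 days with HFD (log2 fold change -1.98, SE 0.229, adjusted p = 0.00195 from edgeR) and with FEN-HFD (log2 fold change -0.92, SE 0.138, adjusted p = 0.0108 from edgeR, and 0.0577 without mouse 21).

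Cyp7b1, which encodes the oxysterol 7α-hydroxylase of the acidic pathway, averaged 314 ± 111 CPM in FEN-HFD and 144 ± 87.1 CPM in HFD livers at 20 weeks (SD, n = 4 each; log2 fold change 1.12, SE 0.483, adjusted p = 0.261 from edgeR). FEN-HFD mouse 29 was at 148 CPM, among the HFD livers (52.1 to 238 CPM), and the other FEN-HFD mice were at 358 to 379.9 CPM. At 7 days it averaged 681 ± 120.5 CPM in FEN-HFD and 472 ± 123 CPM in HFD livers (SD, n = 4 each; log2 fold change 0.53, SE 0.186, adjusted p = 0.745 from edgeR). Between HFD livers at 20 weeks and at 7 days, 2 genes of the list rose, Ephx1 (log2 fold change 1.15, SE 0.184, adjusted p = 0.00783) and Hsd17b4 (0.57, adjusted p = 0.0171), and 2 fell, Cyp2c70 and Amacr (-0.55, adjusted p = 0.0349, by edgeR). Of all genes, 7.51% passed by edgeR between these groups. The Amacr call was lost without HFD mouse 25, 28, 45, 142, 144 or 146, with adjusted p up to 0.106.

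**Figure D4:**
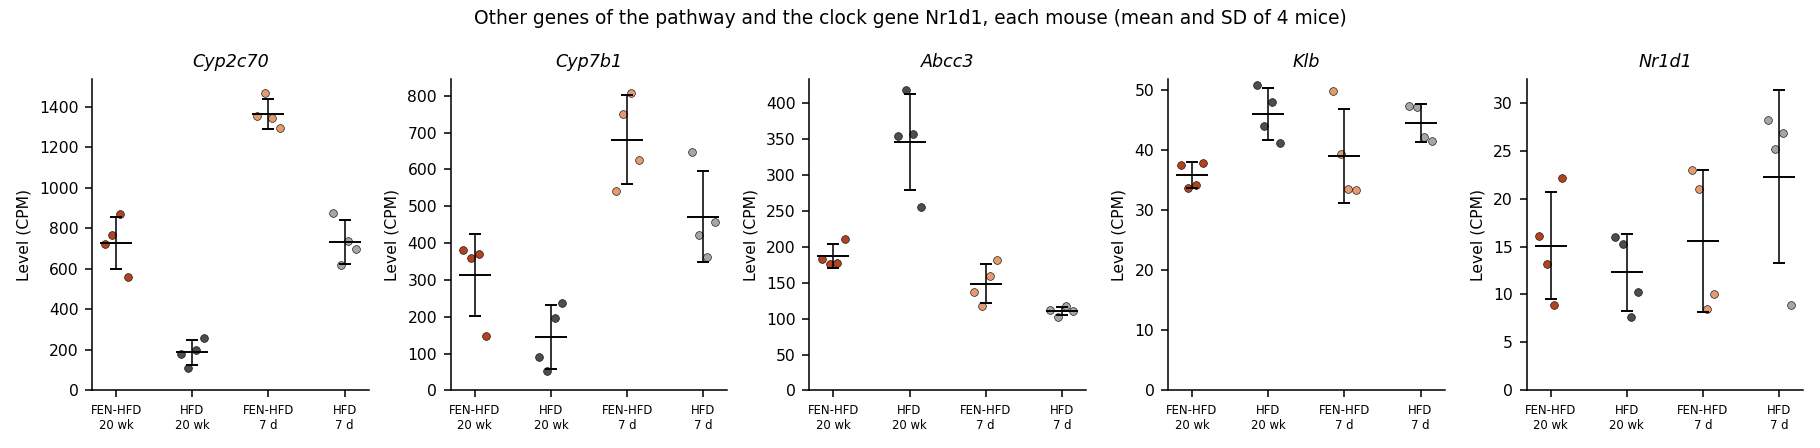
Level (CPM, vertical axis from 0) of Cyp2c70, Cyp7b1, Abcc3, Klb and the clock gene Nr1d1 in each mouse of the 4 groups (horizontal axis), with the mean and SD of 4 mice as bars. Cyp2c70 lies at 559 to 869 CPM in FEN-HFD and at 113 to 260.1 CPM in HFD livers at 20 weeks, and Abcc3 is highest in 20-week HFD livers.

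Regulators of bile acid synthesis were 14 genes, all tested. None passed by edgeR with fenretinide, where the unadjusted p was under 0.05 for 2 higher and 3 lower genes at 20 weeks and for none at 7 days. At 20 weeks DESeq2 called 2 lower and limma-voom 1 higher and 2 lower, and at 7 days both called none. Klb, the co-receptor through which FGF15 reaches hepatocytes, stood at 37.4, 33.7, 34.1 and 37.9 CPM in FEN-HFD mice 21, 22, 24 and 29, and at 50.8, 43.9, 48 and 41.1 CPM in HFD mice 25, 28, 33 and 45. The groups did not overlap (log2 fold change -0.36, SE 0.0896, adjusted p = 0.0747 from edgeR), and DESeq2 (adjusted p = 0.0140) and limma-voom (adjusted p = 0.0237) called it lower. Rxrg, a partner of FXR, was higher in 20-week than in 7-day HFD livers (log2 fold change 0.80, SE 0.118, adjusted p = 0.00572 from edgeR). It was the 1 of 14 regulators that edgeR called between these groups, against 7.51% of all genes. The mean of Rxrg in 20-week HFD livers was 6.69 CPM, against 391 CPM for Rxra. Rxra (log2 fold change -0.14, SE 0.135, adjusted p = 0.535 from edgeR) and Rxrb (-0.22, SE 0.104, adjusted p = 0.213 from edgeR) were not called between these groups.

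Of 13 bile acid transporters, 11 were tested at 20 weeks, where 2 fell and none rose with fenretinide. These 2 of 11 stand against 1.86% of all genes. At an unadjusted p under 0.05, 4 were lower and none higher, against 18.5% of all genes, and DESeq2 called 4 lower and limma-voom 3 lower, none higher. Slco1a4, an uptake carrier, averaged 16.6 ± 3.53 CPM in FEN-HFD and 76 ± 31.1 CPM in HFD livers (SD, n = 4 each; log2 fold change -2.20, SE 0.303, adjusted p = 0.0131 from edgeR, and 0.0545 without mouse 21). Abcc3, the gene named above for its likeness to Cyp46a1, stood at 184, 176, 177 and 211 CPM in FEN-HFD mice 21, 22, 24 and 29, and at 354, 418, 357 and 256 CPM in HFD mice 25, 28, 33 and 45. The groups did not overlap (log2 fold change -0.89, SE 0.149, adjusted p = 0.0201 from edgeR). The call was lost without FEN-HFD mouse 21, 22 or 24 or HFD mouse 25 or 33, with adjusted p up to 0.0843. Abcc3 was higher in 20-week than in 7-day HFD livers (346 ± 67.2 and 111 ± 6.15 CPM, SD, n = 4 each, log2 fold change 1.64, SE 0.144, adjusted p = 0.000529 from edgeR). This comparison shares the 20-week HFD livers with the one before. The likeness of Abcc3 to Cyp46a1 was found over these same livers, so a group difference shared by the 2 genes is not a separate result. At 7 days no transporter was called by edgeR, DESeq2 or limma-voom. At an unadjusted p under 0.05, 1 was higher, Abcc3 (log2 fold change 0.43, SE 0.126), against 5.08% of all genes.

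**Figure D5:**
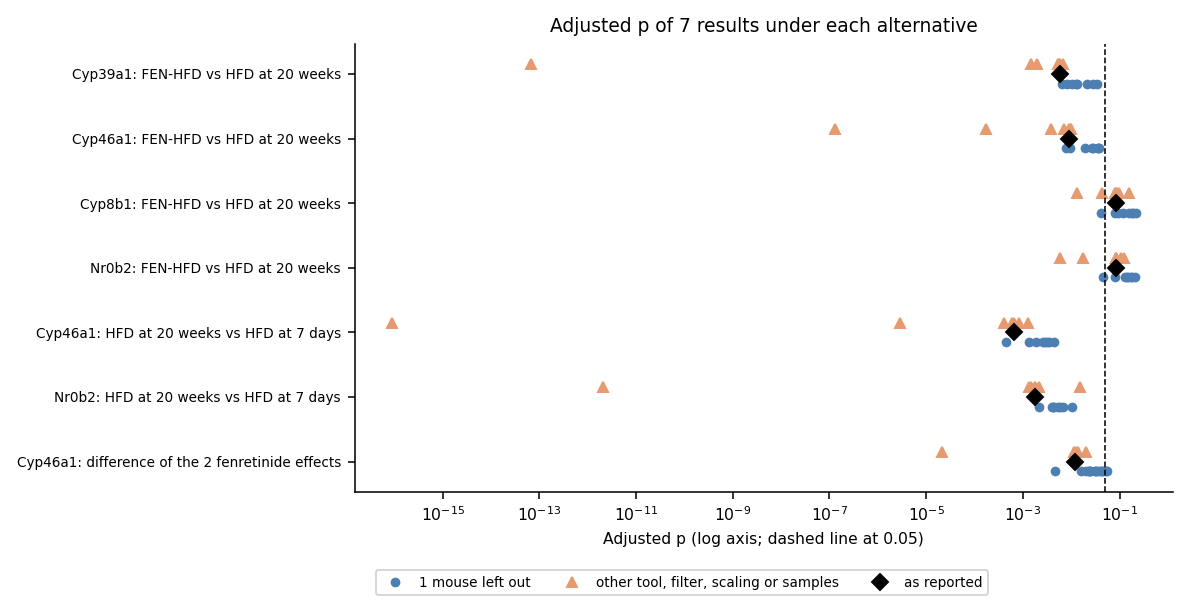
Adjusted p (horizontal log axis, dashed line at 0.05) of 7 results on Cyp39a1, Cyp46a1, Cyp8b1 and Nr0b2 (vertical axis) as reported (diamonds), with 1 mouse left out (circles) and with another tool, filter, scaling or set of samples (triangles). Cyp39a1 and Cyp46a1 at 20 weeks stay under the line, at up to 0.0344 and 0.0368, while Cyp8b1 and Nr0b2 lie on both sides of it.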

How the data were processed

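Liver RNA of 16 male mice was sequenced, and groups and mouse numbers were taken from the labels. No paired test was made, since no mouse number occurs in more than 1 group. The deposited table holds raw counts of reads for each gene symbol, with no normalisation by the authors, whose reads were aligned to mm10 with STAR 2.0 after filtering. The counting program, annotation and strand setting are not given in the sources used here, so overlapping genes cannot be told apart. The submitters' processing notes also name DESeq2 1.6. Of 23420 rows, 2 repeat a symbol.

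In R 4.3.3, counts were filtered (filterByExpr), scaled by TMM and tested with glmQLFit and glmQLFTest (robust) in edgeR 4.0.16 on the groups compared, with Benjamini-Hochberg adjustment over all genes tested and a threshold of 0.05. The difference of effects used all 16 libraries. CPM were scaled over all 16 libraries, so their ratios differ slightly from fitted folds. Likeness of genes used log2 CPM (prior count 2), and relations used log2(CPM + 0.5) centred on group means with 100000 permutations within groups (two-sided). SDs describe the spread between mice, and the tests took mice as the replicates. The genes named were the 10 members, up to 4 of each list with the smallest p in a comparison, and the 3 genes most like each member called with fenretinide. Rxra and Rxrb were added beside Rxrg. As alternatives, limma-voom with quality weights (limma 3.58.1), DESeq2 1.42.0, RLE factors, no filter, at least 10 counts in every library, removal of Rn45s and Lars2, each mouse left out, and all 16 libraries in 1 fit were run. Calculations were tested on simulated data. The members, lists, tests and alternatives were chosen with earlier results of these data known. Positions and exon lengths are from GENCODE vM21. Promoters are from a set of RefSeq windows that held 7 of the 10 genes, without Cyp7a1, Baat and Cyp39a1.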

Additional observations from a re-analysis of the deposited data

Results flagged for a closer look

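In 4 of 40 sets of 4 mice (10 genes in 4 groups), 1 mouse was separated from the others by most of the group's range (Dixon's test at the 95% level), where chance gives about 1 in 20. Cyp7a1 was at 190 CPM in FEN-HFD mouse 29 at 20 weeks, above the others of its group at 105.9 to 110.7 CPM. Cyp39a1 was at 5.99 CPM in FEN-HFD mouse 22 at 20 weeks, and at 17.95 CPM in FEN-HFD mouse 61 at 7 days, the highest of each group. Hsd3b7 was at 701.5 CPM in FEN-HFD mouse 62 at 7 days.

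The effect of fenretinide differed between 20 weeks and 7 days for Cyp46a1 (log2 difference -2.24, adjusted p = 0.0119 from edgeR) and for the transporter gene Abcc3 (log2 difference -1.32, SE 0.201, adjusted p = 0.0197 from edgeR). The Abcc3 difference was no longer called without FEN-HFD mouse 21, 22, 65 or 66 or HFD mouse 25 or 143, with adjusted p up to 0.0841.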

How the results depend on the processing

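No paired analysis was possible because no mouse number is shared between groups. Of 50 results on single members, none called in the reported analysis changed direction in any alternative. Members called at 20 weeks numbered 2, but 4 by DESeq2 and 4 by limma-voom, and 2 to 3 with 1 mouse left out. Over time with FEN-HFD, DESeq2 called 1 instead of 0. For the difference of the 2 fenretinide effects, DESeq2 called 2 instead of 1, and 0 to 1 were called with 1 mouse left out (0 without mouse 22 or 65). In limma-voom alone, small log2 values changed sign: Cyp27a1 at 20 weeks (0.024), Cyp8b1 at 7 days (0.025), and the differences of Hsd3b7 (0.18) and Nr1h4 (0.11). With 1 mouse left out, 39 of 480 values, over 15 uncalled results, changed sign. At 20 weeks these ran from -0.15 to 0.081 for Baat, -0.14 to 0.057 for Cyp27a1, -0.0092 to 0.68 for Cyp7a1 and -0.0085 to 0.20 for Nr1h4. At 7 days they ran from -0.28 to 0.078 for Akr1d1, -0.83 to 0.064 for Cyp7a1 and -0.32 to 0.25 for Cyp8b1. Over time they ran from -0.034 to 0.16 for Nr1h4 with HFD and, with FEN-HFD, from -0.27 to 0.059 for Akr1d1, -0.20 to 0.026 for Baat, -0.37 to 0.19 for Cyp7a1 and -0.38 to 0.15 for Nr0b2. For the difference they ran from -0.037 to 0.19 for Baat, -0.14 to 0.10 for Hsd3b7 and -0.094 to 0.11 for Nr1h4. The cause was not tested. Low counts limit Cyp46a1, read 10 times in the library of mouse 29.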
